A study of Homo sapiens with 14 samples.

Results

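The genes for tumour necrosis factor (TNF), lymphotoxin alpha (LTA) and lymphotoxin beta (LTB) lie side by side on chromosome 6. All regions of the table of NF-κB binding that overlapped a window of 40 kb around the 3 genes (hg18) were taken as this locus, a rule that uses position only. It held 4 of the 14865 regions. The table comes from chromatin immunoprecipitation followed by sequencing (ChIP-seq) of L1236, an established cell line of Hodgkin lymphoma, with no treatment named in the labels. Antibodies against RelA, RelB, p50 and p52 were used in 2 replicates each, and 6 libraries of input DNA served as background. Each of RelA, RelB and p50 was precipitated with 1 antibody, while p52 had a mouse antibody in 1 replicate and a rabbit antibody in the other. Reads per region are given for the merged replicates of each subunit, without values for input, so that no error between replicates can be given for them. The table holds no expression values, so the line could not be checked against marker genes, and nothing here tells whether TNF, LTA or LTB were transcribed.

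TNF is a secreted and membrane-bound cytokine that activates the canonical NF-κB pathway, in which RelA and p50 enter the nucleus. LTA forms a soluble homotrimer that binds TNF receptors. Together with LTB, which anchors it in the membrane, it forms the ligand of the lymphotoxin-β receptor, a receptor known for activating the non-canonical pathway, in which p100 is processed to p52 and pairs with RelB. All 3 genes are known as NF-κB targets in lymphocytes, and p50 and p52 lack the transactivation domain that RelA and RelB carry.

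No genome sequence of hg18 was used, so the bases under the summits are not shown. The promoters of the 3 genes are known from RefSeq (GRCh38.p14, 250 bases before to 50 bases after each start), and they were searched on both strands for the NF-κB consensus and for the looser motif GGGNNNNNCC, of which every consensus match is also a match. The consensus was found in 5.91% and the looser motif in 58.7% of all 35116 promoters. The best match of each gene is shown, because these are the letters that NF-κB dimers are known to read, with the motif in capitals and 10 bases on each side.
LTA: ctaagccctgGGGGCTTCCCcgggccccag
TNF: atgagctcatGGGTTTCTCCaccaaggaag
LTB: acacctggctGGGACTTTCCgcacacccct
The LTA sequence lies at chr6:31572176-31572205 on the plus strand, and its motif begins 103 bases before the downstream of the 2 RefSeq starts of LTA. It matches the consensus and overlaps further looser matches on both strands. The promoter of the upstream LTA start held 1 looser match and no consensus match. For TNF, the only match is the looser motif shown, at chr6:31575454-31575483 on the plus strand, 101 bases before the start. The LTB sequence lies at chr6:31582492-31582521 and reads on the plus strand, opposite to the gene. Its motif, 86 bases before the upstream of the 2 LTB starts, matches the consensus and is the only consensus match among 7 positions with the looser motif. A match describes letters in these windows and is not evidence of a bound site.

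A pair of neighbouring stretches, one upstream of LTA and one that reaches from the LTA start past the TNF start, carried calls for p50, p52 and RelB together. A region next to NFKBIL1 was called for p50 and p52, and a region inside LTB for p50 alone. The 4 regions were thus all called for p50, against 73.8% of all regions of the table. For p52, 3 of 4 were called, against 73.3% of all regions, and for RelB 2 of 4, against 26.8%. Both of these carried p50, p52 and RelB without RelA, a combination of 17.1% of all regions. None of the 4 was called for RelA, which was called in 3.31% of all regions. Counts over 4 regions are too few to be read against these shares.

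**Figure D1:**
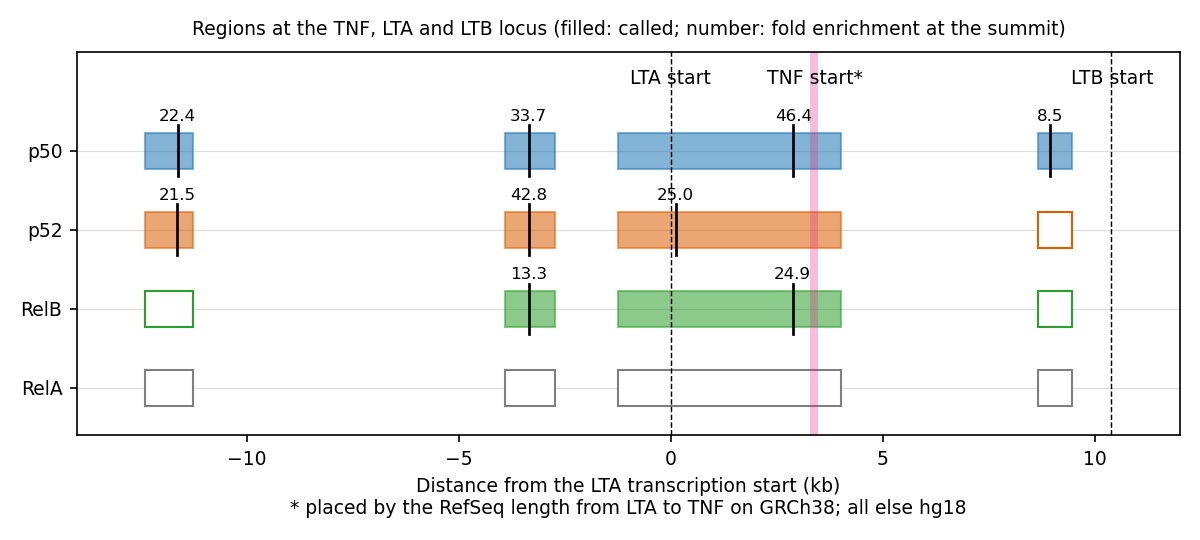
Map of the 4 regions by distance from the LTA start in kb, with 1 row per subunit. Filled bars are regions called for the subunit, open bars regions not called, black ticks summits, and the numbers fold enrichment over input. The p50 and RelB summits of the LTA-TNF region lie near the TNF start and the p52 summit near the LTA start.

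The LTA-TNF region, at chr6:31646555-31651829, spans 5275 bp, and only 12 regions of the table are wider. It begins 1255 bp before the LTA start that the authors' annotation gives and ends 4019 bp after it, so it overlaps the start and the table assigns it to LTA. The identifier of TNF was assigned no region of the table. In RefSeq the TNF start follows the starts of LTA at 3466 and 3276 bp and precedes the LTB start by 6860 bp. Set beside the hg18 distances, these lengths place the TNF start inside the LTA-TNF region, between 508 and 743 bp before its end. The lengths come from another build, and the distance between the LTA and LTB starts was 10371 bp in hg18 and 10326 bp in RefSeq.

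It held 1531 reads of p50 (95% Poisson interval 1455 to 1610), 1455 of p52 (1381 to 1532), 404 of RelB (366 to 445) and 166 of RelA (142 to 193). These intervals, like all others given here, cover counting error only. Ordered by reads, the region ranked number 4 of the table for p50, 13 for p52 and 27 for RelB. Its width enters these ranks. Per kb it had 290.2 reads of p50, 276 of p52 and 76.6 of RelB, which lie at percentiles 98.4, 94.8 and 95.5 of all regions. The region supplied 71.2% of the p50 reads of the locus, 65.5% of those of p52, 71.8% of those of RelB and 65.6% of those of RelA.

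Its summits fell at different ends. The p50 summit at 31650701 lay 2891 bp after the LTA start and the RelB summit at 31650686 lay 2876 bp after it, 15 bp apart. By the RefSeq lengths the p50 summit is 385 to 620 bp upstream of the TNF start. The p52 summit at 31647921 lay 111 bp after the LTA start, 2780 bp from the p50 summit and 2765 bp from that of RelB. In the 7643 regions called for p50 and p52 the median distance between both summits was 11 bp, and only 5 regions had summits farther apart. A wider region has room for summits farther apart. Of the 39 regions called for both that are 4000 bp or wider, 19 had summits more than 1000 bp apart, with a median of 993 bp.

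**Figure D2:**
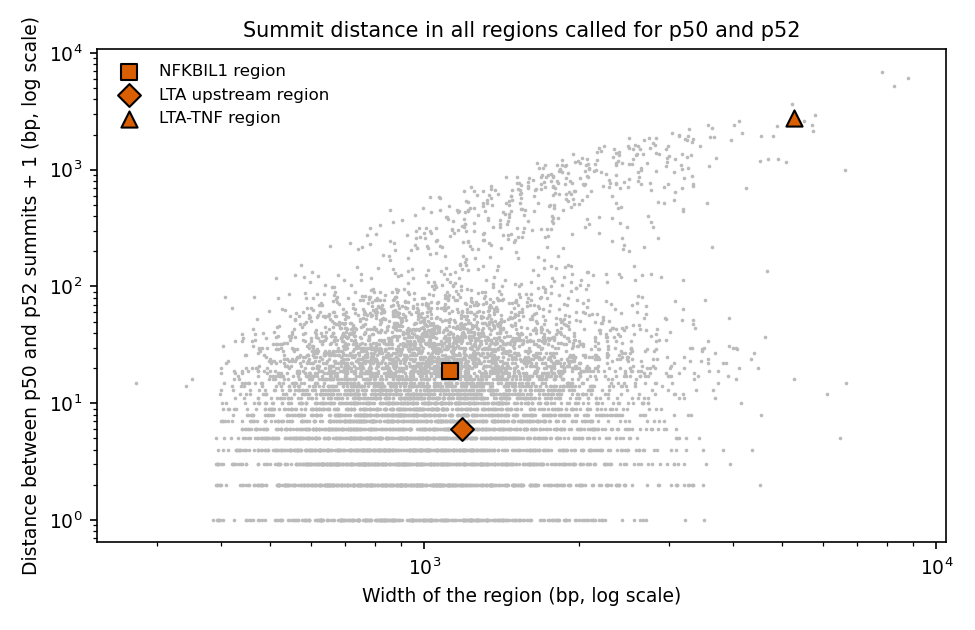
Distance between the p50 and p52 summits (bp, plus 1, log scale) against the width of the region (bp, log scale) for the 7643 regions called for both subunits (grey), with 3 regions of the locus in orange. The LTA-TNF region lies among the widest regions at 2780 bp, and the other regions of the locus at 18 and 5 bp.

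The table lists for each subunit 1 summit per region, that of the most significant peak, so a second p52 peak near TNF or a second p50 peak near LTA would not be seen. The authors' peak numbers rise along the chromosome in every subunit. In p52 the number 8879 is skipped after the LTA-TNF region (8878), and in RelB the number 4435 is skipped before it (4436), whereas p50 has no gap at the locus. Such gaps were rare in p52 and p50, with 203 and 135 skipped numbers for 10893 and 10975 called regions. They were common in RelB, with 1532 for 3984, so the RelB gap is less unusual than that of p52. Whether a skipped number is a further peak in the LTA-TNF region or a peak that failed a threshold was not tested.

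The LTA upstream region, at chr6:31643899-31645082, is 1184 bp wide and ends 2728 bp before the LTA start. It had 511 reads of p52 (468 to 557), 324 of p50 (290 to 361), 102 of RelB (83.2 to 124) and 42 of RelA (30.3 to 56.8). Per kb these are 432 reads of p52, 274 of p50 and 86.1 of RelB, the highest values of the locus for p52 and RelB. The p52 value exceeds those of 99.0% of all regions. The RelB interval of 70.2 to 105 reads per kb overlaps that of the LTA-TNF region, 69.3 to 84.4, as do those of p50. For p52 they do not overlap, with 395 to 471 upstream of LTA and 262 to 290 at LTA-TNF. All 3 summits fell within 12 bp of each other, at 31644458 for p50, 31644463 for p52 and 31644470 for RelB, 3340 to 3352 bp before the LTA start.

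The NFKBIL1 region, at chr6:31635422-31636544, spans 1123 bp. Its closest gene, given only as the identifier ENSG00000204498, ends 837 bp before it, and its closest start is that of LTA, 11266 bp away. By the order of genes in RefSeq this neighbour is NFKBIL1, which was named for its likeness to IκB proteins. There were 209 reads of p50 (182 to 239), 219 of p52 (191 to 250), and 34 each of RelB and RelA (23.5 to 47.5). The p50 and p52 summits, at 31636185 and 31636167, were 18 bp apart. Without calls for RelB or RelA it belongs to the most frequent kind of region, p50 with p52 only, which makes up 31.8% of the table.

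Inside LTB, chr6:31656467-31657268 was called for p50 alone, as were 21.2% of all regions. This LTB region is 802 bp wide and ends 913 bp after the start of the gene ENSG00000204487, which reads on the minus strand and is LTB by the order of genes in RefSeq. It had 85 reads of p50 (67.9 to 105), 38 of p52 (26.9 to 52.2), 23 of RelB (14.6 to 34.5) and 11 of RelA (5.49 to 19.7). Its p50 summit at 31656744 lay 1437 bp inside the gene. The promoter window that holds the consensus match shown above lies outside this region, and no other region of the table covers the LTB start. Among the regions called for p50 only, its fold enrichment was at percentile 5.83.

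**Figure D3:**
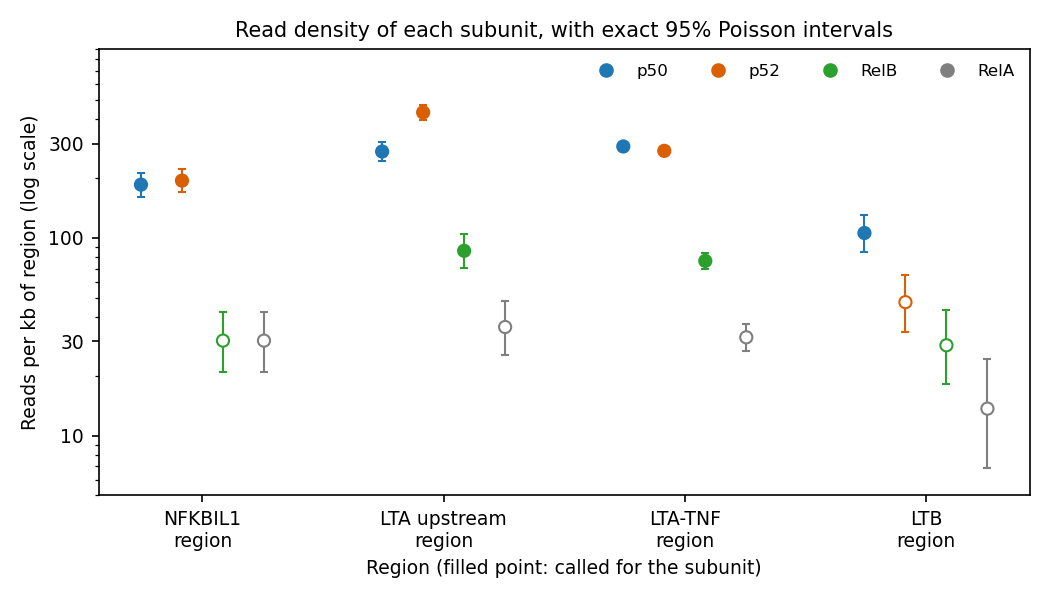
Reads per kb of region (log scale) of each subunit in the 4 regions, with exact 95% Poisson intervals, filled points for called and open points for regions not called. p52 is highest upstream of LTA at 432 reads per kb, and all 4 subunits are lowest at LTB.

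Enrichment at the summit put LTA-TNF first for p50 and RelB and the LTA upstream region first for p52, while by reads per kb the LTA upstream region was first for RelB as well. For p50 the fold enrichment over input was 46.4 at LTA-TNF, 33.7 upstream of LTA, 22.4 beside NFKBIL1 and 8.50 at LTB, against a median of 16.8 in the 10975 regions called for p50. These are the percentiles 96.2, 87.6, 68.6 and 3.37. The low place of LTB depends on the measure, with percentile 5.08 by signal value 1, 25.1 by signal value 2, 33.4 by pileup and 49.8 by reads per kb. For p52 it was 42.8 upstream of LTA, 25.0 at LTA-TNF and 21.5 beside NFKBIL1, at percentiles 91.1, 71.3 and 63.4 of the 10893 called regions. RelB reached 24.9 at LTA-TNF and 13.3 upstream of LTA, at percentiles 95.2 and 74.6 of the 3984 called regions. The pileup, the number of fragments that overlap at the summit, put the regions in the same order within each of the 3 subunits.

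**Figure D4:**
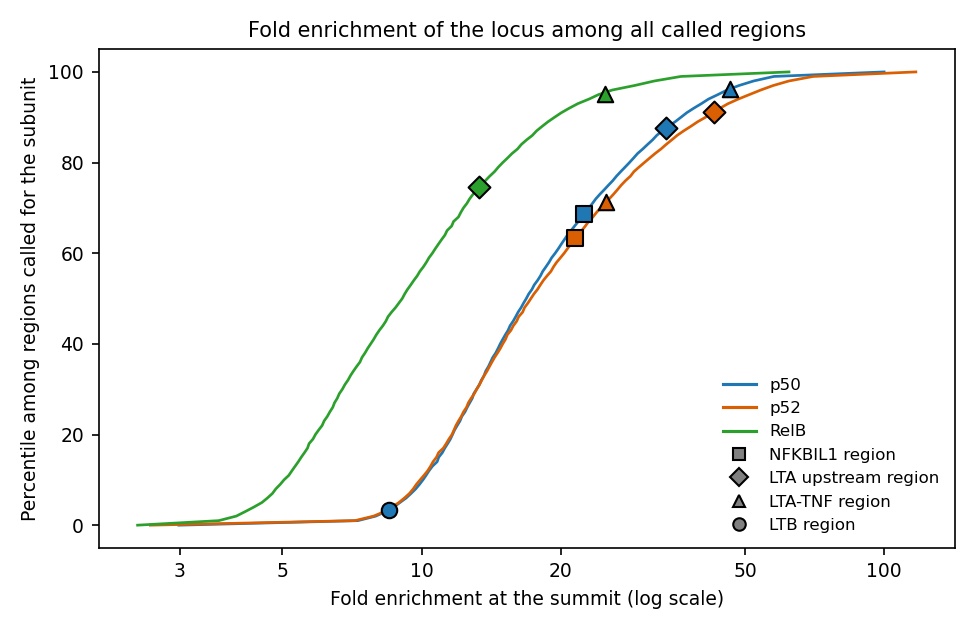
Fold enrichment at the summit (log scale) against its percentile among the regions called for p50, p52 or RelB (lines), with the regions of the locus as symbols. LTA-TNF is highest of the locus for p50 and RelB at 46.4 and 24.9, the LTA upstream region for p52 at 42.8, and LTB is near the low end of this measure for p50 at 8.50, though at percentile 49.8 by reads per kb.

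Each called region also has a signal value from each of the replicates, on a scale that is not stated. For p52 both replicates, and thus both antibodies, gave a higher value upstream of LTA (1732 and 3238) than at LTA-TNF (325 and 825), in the order of the merged fold enrichment. For RelB both were higher at LTA-TNF (423 and 2544) than upstream of LTA (377 and 972). For p50 the replicates went against the merged values, with 2460 and 1589 upstream of LTA and 1651 and 1438 at LTA-TNF. The order of these regions for p50 thus depends on the measure. At LTB the p50 signal values were 136 and 205, and its irreproducible discovery rate (IDR) of 0.00495 was the highest of the locus. These differences between regions were not tested.

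Signal values with more than 5 decimals stood at LTA-TNF for both replicates of p52 and for 1 of RelB. Over the table such values are found in 0.879% to 4.44% of the called regions of p50, p52 and RelB, and these regions are wider, with medians of 1577 to 2148 bp against 882 to 1111 bp in the others. Whether they are averages over several replicate peaks was not tested. The p52 and RelB signal values at LTA-TNF may therefore not be comparable with those upstream of LTA.

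To ask whether the subunits were distributed alike over the locus, reads of pairs of subunits in each region were set against those in the other regions by two-sided Fisher's exact tests. There were 16 tests, of which 8 had an adjusted p under 0.05 (Benjamini-Hochberg). They compare merged libraries, not repeated experiments. A region entered the table only through the subunits called in it, so a ratio between a called and an uncalled subunit is set in part by that filter. The counts are not corrected for input, and the share of background reads in regions that were not called was not tested.

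Upstream of LTA, p52 reads were more frequent relative to p50, with a log2 odds ratio of 0.75 (95% interval 0.52 to 0.98, adjusted p = 4.05e-10 by Fisher's exact test). This passed the threshold against every set of comparison regions tried. At LTB the log2 odds ratio was -1.24 (-1.84 to -0.67). This region is in the table through its p50 call alone, so a lower share of p52 follows from how it entered, and the value is given as a description although it is among the 8. At LTA-TNF the log2 odds ratio was -0.39 (-0.57 to -0.20, adjusted p = 0.000223 by Fisher's exact test), and this rests on the LTA upstream region in the comparison: without it the value was 0.12 (adjusted p = 0.454), and against all regions that overlap a start it was 0.46 (adjusted p = 4.77e-17). Beside NFKBIL1 the ratio was 0.02 (-0.27 to 0.32), and against all regions that overlap a start it was 0.60 (adjusted p = 5.04e-05 by the exact test).

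Relative to the reads of all regions, the log2 ratio of p52 to p50 was 0.53 upstream of LTA, -0.06 beside NFKBIL1, -0.20 at LTA-TNF and -1.28 at LTB. These values lie at percentiles 70.4, 48.9, 44.1 and 13.0 of the table.

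For RelB against p52 all 4 regions passed the threshold. Each was set against the sum of the other regions, so these 4 values depend on each other. The log2 odds ratio was 1.29 at LTB (0.46 to 2.09, adjusted p = 0.00563 by Fisher's exact test), where neither was called and the counts were 23 and 38. This region entered through p50 alone, so its low p52 count follows in part from that filter. At LTA-TNF the log2 odds ratio was 0.42 (0.12 to 0.73) and upstream of LTA -0.43 (-0.79 to -0.09). Beside NFKBIL1, where p52 was called and RelB was not, it was -0.77 (-1.35 to -0.22), which the filter also sets in part. The values at LTB and beside NFKBIL1 are given as a description. The LTA-TNF value lost its call without the NFKBIL1 region (0.29, adjusted p = 0.173 by the same exact test) or the LTA upstream region (0.32, adjusted p = 0.235) and turned to -0.28 (adjusted p = 0.000996) against regions that overlap a start. Those upstream of LTA and beside NFKBIL1 lost theirs without the LTA-TNF region (-0.15 and -0.55, with adjusted p of 0.697 and 0.134 by the exact test). The LTB value was 0.85 (adjusted p = 0.0545) against regions that overlap a start.

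**Figure D5:**
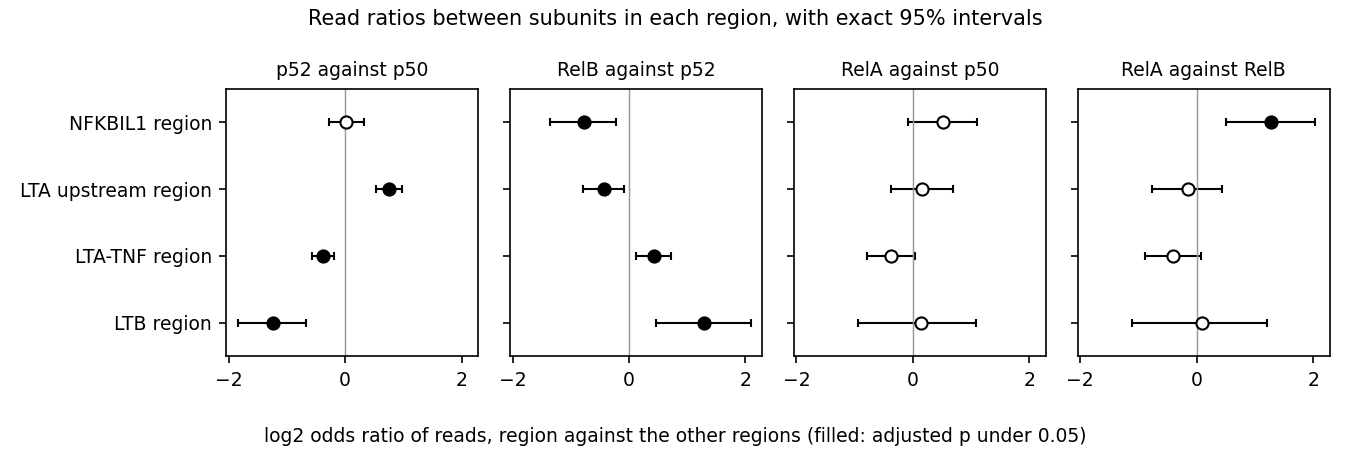
log2 odds ratios of reads for 4 pairs of subunits in each region against the other regions of the locus, with exact 95% intervals and filled points for an adjusted p under 0.05. For p52 against p50 the LTA upstream region lies above 0 at 0.75, and LTB, which entered the table through p50 alone, lies at -1.24.

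RelA was not called at the locus. Its reads numbered 34 beside NFKBIL1, 42 upstream of LTA, 166 at LTA-TNF and 11 at LTB. In the paper's quality control the RelA libraries had the lowest normalized strand cross-correlation of the ChIP libraries, though the paper states that all passed. The paper relates the number of regions of each subunit to its nuclear amount, which was low for RelA. What lies behind the missing RelA calls was not tested, and they are not read here as absence of RelA. Of the 14373 regions not called for RelA, only 26 had more RelA reads than LTA-TNF, but per kb, where it had 31.5 (26.9 to 36.6), 783 had more. Its density falls among those of called regions, of which 142 of 492 had fewer reads per kb. The median of the called regions was 38.4 and that of all regions 15.6. Upstream of LTA the RelA density was 35.5 reads per kb and beside NFKBIL1 30.3, with intervals that overlap that of LTA-TNF, and at LTB it was 13.7, with an interval up to 24.5 that does not reach 26.9. Of the 12 regions wider than LTA-TNF, 5 were called for RelA.

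No region passed the threshold for RelA against p50, with log2 odds ratios of -0.38 to 0.53 and adjusted p of 0.121 to 0.839 by Fisher's exact test. The intervals are wide, and that of LTB runs from -0.93 to 1.08. Set against all regions of the table, RelA was lower relative to p50 at LTA-TNF, with a log2 odds ratio of -0.81 (adjusted p = 2.44e-12 by Fisher's exact test), and upstream of LTA, with -0.56 (adjusted p = 0.0294). Against regions that overlap a start these values were -0.64 (adjusted p = 4.24e-08 by the exact test) and -0.38 (adjusted p = 0.157). RelA was not called in either region and p50 was called in both. A lower share of RelA thus follows in part from how these regions entered the table, and the values are given as a description. Relative to the reads of all regions, the log2 ratio of RelA to p50 lay at percentile 21.3 of the table at LTA-TNF and 31.2 upstream of LTA. Relative to RelB, RelA was higher beside NFKBIL1, where each had 34 reads and neither was called, with 1.27 (0.50 to 2.04, adjusted p = 0.00347 by Fisher's exact test). That call was lost against regions that overlap a start (0.46, adjusted p = 0.269 by the exact test) and against all regions (0.58, adjusted p = 0.157). At LTA-TNF the value for RelA against RelB was -0.41 (-0.89 to 0.07). It passed the threshold without the LTA upstream region in the comparison (-0.94, adjusted p = 0.00876 by the exact test), against regions that overlap a start (-0.82, adjusted p = 1.34e-09) and against all regions (-0.70, adjusted p = 5.06e-07). Upstream of LTA it was -0.15 (-0.76 to 0.44) within the locus, and it passed against regions that overlap a start (-0.82, adjusted p = 0.00304 by the exact test) and against all regions (-0.70, adjusted p = 0.0163). RelB was called in both of these regions and RelA in neither, so these values too are set in part by that filter and are a description. The log2 ratio of RelA to RelB, scaled in the same way, lay at percentile 17.5 at LTA-TNF and 17.8 upstream of LTA.

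The 4 regions are spaced by 7354, 1472 and 4637 bp. Windows of 40 kb that begin at a region held 4 or more regions in 9.59% of cases, with a median of 1. Outside the window the nearest regions lie 61166 bp before the first region and 35132 bp after the last, the latter assigned to AIF1, a gene expressed in macrophages, and called for p50, p52 and RelB. There were 8 regions in the 200 kb on either side, none called for RelA, and none reached the reads of LTA-TNF for any subunit. The highest values among them were 331 reads of p50, 331 of p52, 124 of RelB and 90 of RelA.

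Other genes of the TNF and lymphotoxin pathway were taken from a list of 33 genes. Identifiers could be paired with symbols for 10 of them, through tables of the study that hold mainly genes it had studied, so the share with a region says nothing about the pathway. All 10 had a region called for p50 and for p52, 8 for RelB and 5 for RelA. No share over all genes stands beside these counts, so they are not a result about the pathway. A gene with more regions has more chances of a call, and these genes had 1 to 18 regions each. TRAF1, BIRC3, TNFAIP3, NFKBIA and ICAM1 each had 1 region called for all 4 subunits, which no region of the TNF, LTA and LTB locus was. Of all 14865 regions, 349 were called for all 4 subunits. BIRC3 encodes an inhibitor of apoptosis, TRAF1 an adaptor, TNFAIP3 and NFKBIA the inhibitors A20 and IκBα, and ICAM1 an adhesion molecule.

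Of these 5 regions, the one at NFKBIA had 190 RelA reads and the others 62 to 97, against 166 at LTA-TNF. Per kb the one at BIRC3 had the most RelA reads, 52.8, that at TRAF1 had 36.7, and that at ICAM1 had fewer than the 31.5 of LTA-TNF, although it was called. The p50 fold enrichment at LTA-TNF, 46.4, likewise lies within that of the 5 regions, 33.3 (TRAF1) to 88.7 (NFKBIA), whereas its p52 fold enrichment of 25.0 is below all of them, 30.3 (ICAM1) to 101 (NFKBIA). These 5 regions were chosen by their calls for all 4 subunits. Over all regions called for p52 the median was 17.2, below the value at LTA-TNF. The p52 value upstream of LTA, 42.8, is above ICAM1 and below the other 4. Among the receptors and ligands, TNFRSF14, a receptor that LTA also binds, reached a p52 fold enrichment of 30.3, and TNFSF9, the ligand of 4-1BB, 59.4. ADAM17, the protease that sheds TNF from the membrane, reached 9.03. Each of these was the only gene of its group with a paired identifier. The other receptors and ligands of the list could not be looked up.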

How the data were processed

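ChIP-seq of L1236 cells gave the authors' table of union regions used here. Read files and coverage were not used. Per the methods, the authors aligned to hg18 with Bowtie, discarded reads that mapped more than once and PCR duplicates (SAMtools), and sampled each library down to 10000000 reads. The paper's quality control lists fewer mapped reads than that for both RelB libraries, so these could not be sampled down to this size. CASAVA is also named in the submitters' processing notes, and versions are not given in the sources used here. Peaks were called with MACS per replicate and on merged replicates.

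The deposited counts are whole reads per region from merged replicates. The sources used here do not say if this preceded the sampling. Over all regions their sums are 1654137 (p50), 1810792 (p52), 470788 (RelB) and 315151 (RelA), so RelA and RelB values are the least precise. Fold enrichment, as deposited, is a ratio of merged ChIP over input at the summit, and the deposited pileup is a coverage signal there. The deposited IDR is a fraction, computed by the authors between replicates, and the deposited FDR a q-value from MACS. The authors set a threshold of 0.05 for each, while the largest IDR in the table is 0.00999814. The deposited signal values are a score of each replicate as entered into the IDR analysis, with no replicate number. The authors assigned each region the closest gene and start of Ensembl 54, up to 1 Mb away, and starts of LTA and LTB were derived from region ends and these distances.

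Counts have exact Poisson intervals and log2 odds ratios are conditional estimates with exact intervals (95%). Percentiles are the share of regions with a lower value, and ratios relative to the reads of all regions had 0.5 added to each count. Fisher's exact test was checked on simulated Poisson counts. These hold counting error only, so the check says nothing about variation between replicates or antibodies. Symbols came from supplementary tables of the study, which pair 1132 of the 8450 identifiers of the table, and gene order from RefSeq. Regions and gene lists were chosen with earlier results of these data known. The genes named, by a rule, are LTA, TNF and LTB, each closest gene of a region of the locus, and from the pathway list those with a region of all 4 subunits. The rule also names the gene with the highest p52 fold enrichment in each group, among genes with a paired identifier. The alternatives were other thresholds, windows, comparison regions, measures and gene assignments. No columns of samples were left unmapped. Software was Python (3.11.15) with scipy (1.17.1) for tests, pandas (2.3.3) and numpy (2.4.6) for tables, and matplotlib (3.10.9) for plots.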

Additional observations from a re-analysis of the deposited data

How the results depend on the processing

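The 9 calls at the locus kept their number with an FDR below 1e-05, with a minimum fold enrichment of 5 and in a window 10 kb wider on each side, and 7 were left in a window 10 kb narrower, which loses the NFKBIL1 region. An IDR below 0.01 could remove no call, since every IDR in the table is lower. The number of read ratios past the threshold was 8 and became 10 against all regions that overlap a start or against all regions. The direction of single log2 odds ratios turned in these cases. Against all regions that overlap a start, they were 0.46 and -0.28 for p52 against p50 and RelB against p52 at LTA-TNF, -0.054, -0.38 and -0.38 for RelA against p50 beside NFKBIL1, upstream of LTA and at LTB, and -0.60 for RelA against RelB at LTB. Against all regions of the table, p52 against p50 was -0.063 beside NFKBIL1, RelA against p50 was -0.23, -0.56 and -0.56 beside NFKBIL1, upstream of LTA and at LTB, and RelA against RelB was -0.49 at LTB. Without the LTA-TNF region, p52 against p50 was -0.36 beside NFKBIL1, RelA against p50 was -0.24 upstream of LTA and -0.14 at LTB, and RelA against RelB was -0.22 at LTB. Without the LTB region, p52 against p50 beside NFKBIL1 was -0.016, and without the LTA upstream region that at LTA-TNF was 0.12. Except for p52 against p50 and RelB against p52 at LTA-TNF, the values that turned had not passed the threshold within the locus. Of these, only RelA against p50 upstream of LTA passed it after turning, against all regions (adjusted p = 0.0294 by Fisher's exact test). A change of the comparison regions alone produced these differences, and their cause was not tested. The percentile of the p50 fold enrichment at LTA-TNF, 96.2, became 99.8 by pileup, 94.1 by signal value 1, 96.6 by signal value 2 and 97.8 by reads per kb, and that at LTB, 3.37, became 33.4, 5.08, 25.1 and 49.8 in the same order. Scaling reads per kb to a subunit's total does not alter a rank within that subunit and has no value of its own. The share of windows with as many regions as the locus was 19.6% with 80 kb and 11.8% with 20 kb. The median distance between p50 and p52 summits was 14 bp in regions that overlap a start and have the calls of LTA-TNF. Of the pathway genes with a paired identifier, 9 kept a region by closest gene alone. No paired analysis was possible because the reads compared between subunits are merged over replicates and the signal values carry no replicate number by which to pair subunits. Within a subunit the columns of signal values were set side by side without a test. The counts of RelA, at 11 to 166 reads a region, limit what can be detected for it.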
